A study of Mus musculus with 14 samples.

Results

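Inmt, Nnmt, Hnmt and Tpmt encode small-molecule methyltransferases, enzymes of the cytosol that move a methyl group from S-adenosylmethionine onto amines, thiols or ring nitrogens of small compounds. The 4 genes were taken by symbol from an expression table of 49584 genes. Inmt was selected on its measured levels, which fell steeply in wild-type (WT) kidneys after cisplatin and were partly kept in knockout kidneys, so its values in those comparisons are a description without a test. Nnmt, Hnmt and Tpmt were chosen for the chemistry they share with it.

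The libraries were made from kidney RNA of mice. WT mice and mice with a conditional knockout (cKO) of Ripk4 were left untreated (n = 3 libraries each), or were given 15 mg per kg of cisplatin by injection into the abdomen and sampled 4 days later (n = 4 each). Ripk4 is the gene of a kinase of the RIP family, and cisplatin is a platinum drug that injures the proximal tubule. The labels name no Cre line for the cKO and no cell type in which Ripk4 was deleted, and they give no sex or age. They give the group of each library but no replicate number, so the numbers used here follow the order of the sample records.

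Inmt N-methylates indolethylamines such as tryptamine, and also methylates thioethers. Nnmt methylates nicotinamide, which takes it out of the salvage route to NAD and marks it for excretion. Hnmt inactivates histamine inside cells, and Tpmt S-methylates thiopurine drugs. All 4 enzymes release S-adenosylhomocysteine, which inhibits methyltransferases until adenosylhomocysteinase (Ahcy) breaks it down.

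All 4 genes lie on the minus strand in the mm10 coordinates of the table. Inmt (ENSMUSG00000003477) spans chr6:55170626-55175043, with 3 exon blocks and 2 transcripts in GENCODE M21. Nnmt (ENSMUSG00000032271) spans chr9:48591877-48605153, with 4 exon blocks and 5 transcripts. Hnmt (ENSMUSG00000026986) spans chr2:24002910-24049394, with 8 exon blocks and 3 transcripts. Tpmt (ENSMUSG00000021376) spans chr13:47025170-47044737, with 11 exon blocks and 8 transcripts, and is the only one of the 4 that overlaps other annotated genes. In this span it overlaps Kdm1b on the opposite strand. Its longer M21 span also overlaps the pseudogene Gm18807 on that strand. The strand setting of the counting is not given in the sources used here, so reads of Tpmt and Kdm1b may not be separated. Kdm1b itself lay between 15.8 and 21.5 FPKM in all 14 libraries.

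The start regions of Inmt and Tpmt are shown because both genes were lower in every WT cisplatin library than in any library of each other group. Their sequences differ in composition. They are RefSeq windows of GRCm38.p6, read 5′ to 3′ on the minus strand, with 250 bases before the RefSeq start and 50 after it. Windows were found for 3 of the 4 genes, Inmt, Hnmt and Tpmt. Capitals mark TATAAA in the Inmt window (chr6:55174941-55175240) and GGGCGG in the Tpmt window (chr13:47043168-47043467), searched on both strands.
Inmt: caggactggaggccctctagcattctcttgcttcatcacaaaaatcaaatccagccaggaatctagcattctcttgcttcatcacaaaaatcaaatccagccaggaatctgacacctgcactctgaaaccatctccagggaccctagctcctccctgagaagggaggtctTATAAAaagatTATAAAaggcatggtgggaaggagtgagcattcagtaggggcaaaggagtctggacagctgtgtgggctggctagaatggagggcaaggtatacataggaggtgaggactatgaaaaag
Tpmt: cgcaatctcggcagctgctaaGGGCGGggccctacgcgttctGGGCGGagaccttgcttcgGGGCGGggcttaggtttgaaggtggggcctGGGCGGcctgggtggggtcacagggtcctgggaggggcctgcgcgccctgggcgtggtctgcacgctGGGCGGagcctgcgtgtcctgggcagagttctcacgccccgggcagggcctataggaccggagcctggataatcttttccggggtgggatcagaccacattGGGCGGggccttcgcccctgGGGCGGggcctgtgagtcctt
The Inmt window held 2 matches to TATAAA, at −80 and −69 from the RefSeq start, and 0 CpG dinucleotides at a GC content of 47.7%. TATAAA occurred in 13.6% of the 32851 RefSeq windows of this length. The M21 annotation starts Inmt 53 bases further upstream, which puts these matches at −27 and −16 from that start. A run of 46 bases, beginning tctagcattctc, stood in the Inmt window 2 times, at positions 16 and 62 from its 5′ end. The Tpmt window held 22 CpG at a GC content of 69.7%, and 7 matches to GGGCGG, which occurred in 35.7% of the windows. In M21 the outermost Tpmt start lies 1520 bases upstream of the RefSeq start. The Hnmt window (chr2:24049330-24049629) held 4 CpG at a GC content of 39.3% and had 0 matches to either motif. These matches describe letters in a window and no binding was measured.

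Depth ran from 36.7 to 77.0 M assigned reads per library. Levels are in FPKM, reads per kilobase of gene length and per 1 M assigned reads. The targeted gene Ripk4 lay at 7.18 to 8.51 FPKM in untreated WT and 3.68 to 4.61 in untreated cKO libraries. After cisplatin it lay at 7.61 to 13.3 in WT and at 5.32, 5.62, 9.09 and 3.61 in the libraries numbered cKO cisplatin replicates 1 to 4, so replicate 3 lay within the WT range. The library numbered cKO cisplatin replicate 4 stood apart from the other 3 of its group: the summed FPKM of 12 tubular injury markers was 733.8, inside the untreated range of 573.4 to 809.5. The injury marker Havcr1 was 5.38 FPKM in that library against 35.2 to 70.8 in the other 3 and 370 to 1116 in WT after cisplatin. WT cisplatin replicate 1 and cKO cisplatin replicate 1 were the lowest libraries in summed endothelial markers, at 164.2 and 199.7 FPKM, against 287.4 or more in each untreated library. The proximal tubule marker Slc34a1 was present in every library, at 274 FPKM or more.

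Inmt was the most abundant of the 4 genes in untreated kidney and the scarcest relative to that level after cisplatin in WT. Its level was 940, 1012 and 1077 FPKM in the WT untreated libraries, and 1400, 873 and 989 FPKM in the cKO untreated ones. After cisplatin it was 32.6, 12.6, 13.04 and 7.54 FPKM in the WT libraries. It was 238, 193, 341 and 1203 FPKM in the libraries numbered cKO cisplatin replicates 1 to 4. Every WT cisplatin library lay below every other library, and cKO replicate 4 lay among the untreated libraries while the other 3 cKO libraries lay between the groups. These values rest on 389 to 1432 reads in the WT cisplatin libraries and 8709 to 50061 reads in the cKO cisplatin ones, so counting error is small beside the spread between animals.

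As group means, Inmt went from 1010 ± 68.6 FPKM (SD, n = 3) to 16.4 ± 11.05 (SD, n = 4) in WT, which is 1.63% of the untreated level. In cKO it went from 1087 ± 277 (SD, n = 3) to 494 ± 477 (SD, n = 4), or 45.4% of the untreated level. Without replicate 4 the cKO cisplatin mean was 257 ± 75.6 FPKM (SD, n = 3), or 23.7% of untreated. The ratio of mean FPKM, cKO over WT after cisplatin, was 30.03, and it was 15.7 without replicate 4. On the log2(FPKM + 1) scale, with standard errors of the model over all genes, the difference from untreated was −6.04 ± 0.54 in WT and −1.52 ± 0.54 in cKO, or −2.09 in cKO without replicate 4. Among 15193 genes kept (mean of at least 0.5 FPKM), only 2 had a more negative difference in WT. The cKO-over-WT difference after cisplatin, 4.60 ± 0.50, was the largest of the 15193 genes, and the difference between the 2 responses was 4.52 ± 0.76. Without replicate 4 these were 4.04 and 3.96, and without replicate 3 they were 4.64 and 4.56. No test is given for these values, since they chose the gene.

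The comparison of the untreated genotypes did not enter the choice of Inmt. There Inmt did not pass the test (difference 0.08 ± 0.57 on the log2 scale, adjusted p = 1.0, exact permutation p = 0.9). With 3 libraries against 3 the exact test cannot go below 0.1.

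Because the kidneys were measured whole, fewer cells of a type and less RNA per cell cannot be told apart. Inmt moved with markers of the proximal tubule, which cisplatin injures, and with some markers of later tubule segments. The summed FPKM of 15 proximal tubule markers was 11640 to 11900 in WT untreated, 11320 to 13070 in cKO untreated, 3236 to 5137 in WT cisplatin and 7447 to 10450 in cKO cisplatin libraries. The sums of the WT cisplatin libraries, like their Inmt levels, did not overlap those of the other groups. In WT 11 of the 15 fell and 0 rose after cisplatin, in cKO 0 of the 15 were called, and after cisplatin 12 were higher in cKO than in WT. Without replicate 4 the last 2 counts were 1 fallen in cKO and 10 higher than in WT. Over all 15193 genes tested, 3392 rose and 1832 fell in WT, and 3 were called in cKO. Between the genotypes after cisplatin 1333 of all genes were higher in cKO and 2755 lower. Without replicate 4, of 15200 genes tested, 172 rose and 115 fell in cKO. In that setting 981 of all genes were higher and 1908 lower in cKO than in WT after cisplatin. All 12 injury markers rose in WT and were lower in cKO than in WT after cisplatin, and in cKO 0 of the 12 rose, or 7 of the 12 without replicate 4. Of 9 markers listed for the thick limb, distal tubule and collecting duct, 4 fell and 1 rose in WT. The 1 that rose was Atp6v1g3 (0.64 ± 0.11, adjusted p = 8.72e-04). After cisplatin Pvalb, Slc12a3 and Calb1 were higher in cKO than in WT, and the other 6 were not called. Over all genes 34.4% were called in WT and 26.9% between the genotypes after cisplatin. Slc12a3, the thiazide-sensitive transporter of the distal tubule, went from 375 ± 83.7 FPKM (SD, n = 3) to 36.4 ± 21.8 (SD, n = 4) in WT and was 230 ± 66.7 (SD, n = 4) in cKO after cisplatin. The summed FPKM of the 9 was 3061 to 3106 in WT untreated, 2676 to 2838 in cKO untreated, 2076 to 3201 in WT cisplatin and 2412 to 3470 in cKO cisplatin libraries. A sum follows its most abundant genes. The mean log2(FPKM + 1) of the 9, which weights them equally, was 6.68 to 6.76, 6.54 to 6.91, 5.28 to 6.02 and 6.21 to 6.66. These are in the same group order, and on this scale the WT cisplatin libraries did not overlap the other groups. The summed injury markers were 10900 to 18340 FPKM in WT cisplatin and 2093 to 4078 in the libraries numbered cKO cisplatin replicates 1 to 3. The part of these markers in the levels of Inmt was not tested.

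**Figure D1:**
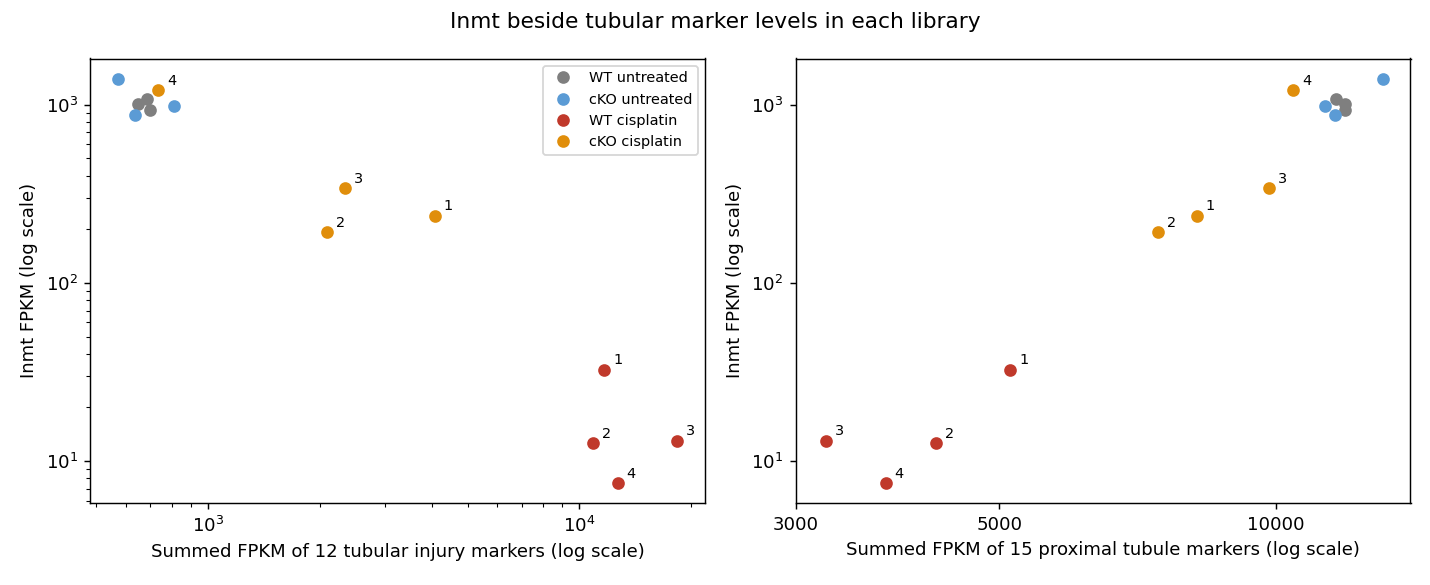
Inmt FPKM in each of the 14 libraries (points, log scale) against the summed FPKM of 12 tubular injury markers (left) and 15 proximal tubule markers (right), with the replicate number beside each cisplatin library. The library numbered cKO cisplatin replicate 4 sits with the untreated libraries in the left panel, and the 4 WT cisplatin libraries lie lowest in Inmt in both panels.

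Nnmt was close to the limit of the filter in untreated kidney and rose in WT after cisplatin. It was 0.859, 0.637 and 0.921 FPKM in WT untreated and 0.581, 0.789 and 0.962 FPKM in cKO untreated libraries. After cisplatin it was 3.10, 3.13, 7.16 and 5.90 FPKM in WT and 1.93, 1.503, 1.28 and 0.546 FPKM in cKO. All 4 WT cisplatin libraries were above all 10 others, and the cKO cisplatin groups overlapped the untreated cKO libraries through replicate 4. The values stand on few reads, 19 to 56 in the untreated libraries, 101 to 307 in WT cisplatin and 18 to 60 in cKO cisplatin.

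The WT mean went from 0.806 ± 0.149 FPKM (SD, n = 3) to 4.82 ± 2.04 (SD, n = 4), a ratio of 5.99. In limma's test over all genes Nnmt rose in WT by 1.63 ± 0.26 on the log2(FPKM + 1) scale (adjusted p = 3.83e-04). That scale understates the ratio of a gene near 1 FPKM. The exact permutation p was 0.0571, the smallest that 3 libraries against 4 allow. In cKO the difference was 0.35 ± 0.26 and did not pass (adjusted p = 0.662). After cisplatin Nnmt was lower in cKO than in WT (−1.30 ± 0.24, adjusted p = 0.00193), and the exact permutation p of 0.0286 was the smallest that 4 against 4 allow. The WT mean was 3.67 times the cKO mean. Without the library numbered replicate 4 this difference was −1.12 (adjusted p = 0.00632), and without replicate 3 it was −1.31 (adjusted p = 0.00628). Compared between the genotypes, the cisplatin responses differed by −1.28 ± 0.36, which did not pass (adjusted p = 0.0658).

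Tpmt fell in WT after cisplatin and did not pass the test in cKO. It was 114, 107 and 123 FPKM in WT untreated and 123, 112 and 112 FPKM in cKO untreated libraries. After cisplatin it was 82.2, 88.6, 56.1 and 57.2 FPKM in WT and 100.4, 108, 108 and 124 FPKM in cKO. Every WT cisplatin library was below every library of the other 3 groups. The change in WT, from 114.7 ± 7.59 (SD, n = 3) to 71.0 ± 16.8 FPKM (SD, n = 4), was −0.71 ± 0.15 on the log2 scale (adjusted p = 0.00246, exact permutation p = 0.0571). In cKO the difference was −0.07 ± 0.15 (adjusted p = 0.909). After cisplatin the cKO level of Tpmt exceeded that of WT by 0.65 ± 0.14 on the log2 scale (adjusted p = 0.00445, with an exact permutation p of 0.0286). Without replicate 4 it was higher by 0.59 (adjusted p = 0.0165), and without replicate 3 by 0.66 (adjusted p = 0.0119). The difference of the responses, 0.64 ± 0.21, did not pass (adjusted p = 0.102).

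Hnmt had the smallest difference of the 4 genes in WT after cisplatin, and it was not called there. It was 12.4, 12.2 and 13.1 FPKM in WT untreated and 8.82, 11.4 and 14.5 FPKM in cKO untreated libraries. After cisplatin it was 10.9, 9.88, 8.25 and 5.73 FPKM in WT and 10.8, 16.4, 14.1 and 13.5 FPKM in cKO. The WT cisplatin libraries were all below the WT untreated ones, but their range overlapped both cKO groups. The WT difference was −0.52 ± 0.20 and did not pass as deposited (adjusted p = 0.0601). It passed after rescaling the libraries by median-of-ratios factors (−0.61, adjusted p = 0.0416) and without WT cisplatin replicate 1 (−0.63, adjusted p = 0.0229). The cKO difference was 0.24 ± 0.20 (adjusted p = 0.716). After cisplatin the cKO level of Hnmt exceeded that of WT by 0.62 ± 0.18 on the log2 scale (adjusted p = 0.0248, with an exact permutation p of 0.0571). It no longer passed without any 1 of 5 of the 8 libraries compared, the WT cisplatin replicates 3 and 4 and the libraries numbered cKO cisplatin replicates 2, 3 and 4 (adjusted p = 0.0536 to 0.0748).

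**Figure D2:**
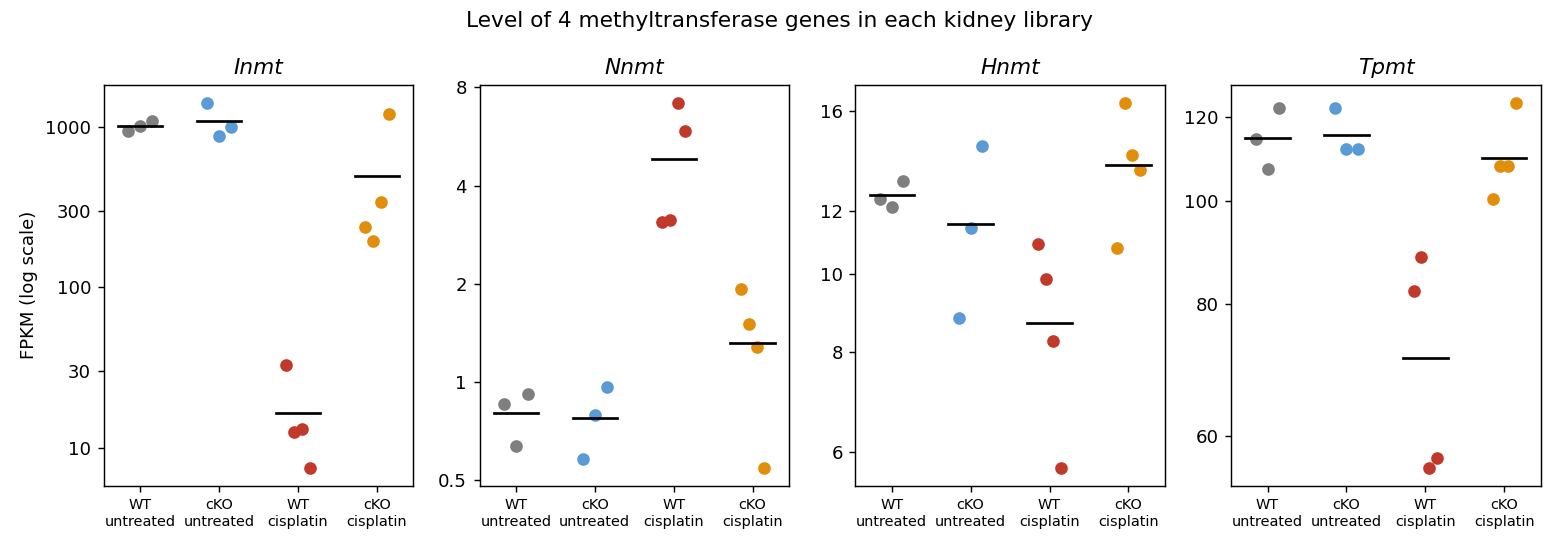
FPKM of Inmt, Nnmt, Hnmt and Tpmt (log scale, a different range in each panel) in the 14 kidney libraries, by group, with 1 point per library and a line at the group mean. Inmt and Tpmt are lowest in the 4 WT cisplatin libraries and Nnmt is highest there, from 3.10 to 7.16 FPKM.

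Read against all genes, the counts were as follows. In WT, 2 of the 3 genes open to a test were called (adjusted p under 0.05), where 34.4% of all genes tested were called. In cKO 0 of the 3 were called by limma and 0 by voom on the recovered reads, with 0 of the 3 at an unadjusted p under 0.05, where 0.0197% of all genes were called, 3 genes in number. Between the untreated genotypes 0 of the 4 genes were called, as were 0.0% of all genes (0 genes, with 123 at an unadjusted p under 0.05, and 0 by voom). The log2 differences there, cKO minus WT, were −0.025 ± 0.27 for Nnmt, −0.13 ± 0.21 for Hnmt and 0.0099 ± 0.16 for Tpmt (adjusted p = 1.0 for each). After cisplatin all 3 open to a test differed between the genotypes, against 26.9% of all genes. In the difference of the responses 0 of the 3 were called by limma and 0 by voom, against 4.06% of all genes, with unadjusted p of 0.00368 for Nnmt, 0.00910 for Tpmt and 0.0189 for Hnmt. The cisplatin response of WT and the genotype difference after cisplatin share the WT cisplatin libraries, so these counts are not separate pieces of evidence. The median log2 difference of all genes in WT was 0.10 as deposited and −0.01 after quantile normalization, a shift that is small beside the differences of Nnmt and Tpmt. After cisplatin the median cKO-over-WT difference was −0.11 as deposited and 0.01 after quantile normalization.

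The order of the 4 genes by level changed after cisplatin. FPKM divides by a gene length, which the authors' values show to be 998 bases for Inmt, 790 for Nnmt, 1427 for Hnmt and 796 for Tpmt, near the mean transcript length rather than the full exon length. In the untreated and cKO cisplatin libraries the order was Inmt, Tpmt, Hnmt, Nnmt, with no overlap between neighbours in any of these 3 groups. In WT after cisplatin Tpmt stood first. The ranges of Inmt (7.54 to 32.6 FPKM) and Hnmt (5.73 to 10.9) overlapped there, though Inmt was above Hnmt within each of the 4 libraries. The ranges of Hnmt and Nnmt (3.10 to 7.16) overlapped too, and in replicate 4 Nnmt was above Hnmt, at 5.90 against 5.73 FPKM.

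For the gene lists described next, the background over all 15193 genes in WT is 3392 genes that rose, 1832 that fell and a median of 0.10. After cisplatin 1333 genes were higher in cKO than in WT and 2755 lower, with a median of −0.11. In cKO, 0 genes of these lists were called by limma or by voom on the recovered reads, and without replicate 4 limma called 1, a rise among the 6 histamine genes. At an unadjusted p under 0.05 limma gave 2 of 16 other methyltransferases there, 3 of 19 genes of the S-adenosylmethionine cycle, 1 of 15 of nicotinamide, 1 of 6 of histamine, 3 of 13 of thiopurine and 3 of 12 of tryptophan metabolism. Some genes named below overlap protein-coding genes on the opposite strand. Among them are Sirt3 (Psmd13 and Ric8a), Impdh2 (Ndufaf3), Gsto1 (Cfap43), Comtd1 (Vdac2) and Aldh7a1 (Phax). As for Tpmt, reads of such pairs may not be separated.

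Of 20 other small-molecule methyltransferase genes listed, 18 were in the table and 16 passed the filter. The adrenaline-forming Pnmt was listed at 0 in every library and the melatonin-forming Asmt did not exceed 0.106 FPKM. Among these 16 genes, WT kidneys after cisplatin had 2 that rose, 3 that fell and 11 not called, with a median difference of −0.16. Comtd1 rose by 0.79 ± 0.17 from 1.35 FPKM (adjusted p = 0.00344).

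With 34.4% of all genes called in WT, 2 rises and 3 falls among 16 genes are near the background share. The 3 that fell in WT were Gamt, Gnmt and Bhmt2. Gamt, which makes creatine from guanidinoacetate, fell from 32.2 ± 1.31 to 16.7 ± 7.48 FPKM (−1.003 ± 0.29, adjusted p = 0.0160). Gnmt, the glycine methyltransferase that buffers S-adenosylmethionine, fell from 26.8 ± 1.00 to 15.4 ± 10.7 FPKM (−0.998 ± 0.35, adjusted p = 0.0426), with WT cisplatin values from 7.14 to 29.8 that overlapped the untreated ones. Bhmt2, a homocysteine methyltransferase, fell from 66.8 ± 3.36 to 37.2 ± 15.8 FPKM (−0.91 ± 0.22, adjusted p = 0.00679). After cisplatin 3 were higher and 2 lower in cKO than in WT, and without the library numbered replicate 4 the counts were 2 and 1. Bhmt2 was higher by 0.94 ± 0.21 (adjusted p = 0.00580) and Gnmt by 1.34 ± 0.33 (adjusted p = 0.00972). These calls held without replicate 4 (adjusted p = 0.0205 and 0.0254), and that of Gamt did not (adjusted p = 0.0650). In the difference of the responses 1 of the 16 was called.

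**Figure D3:**
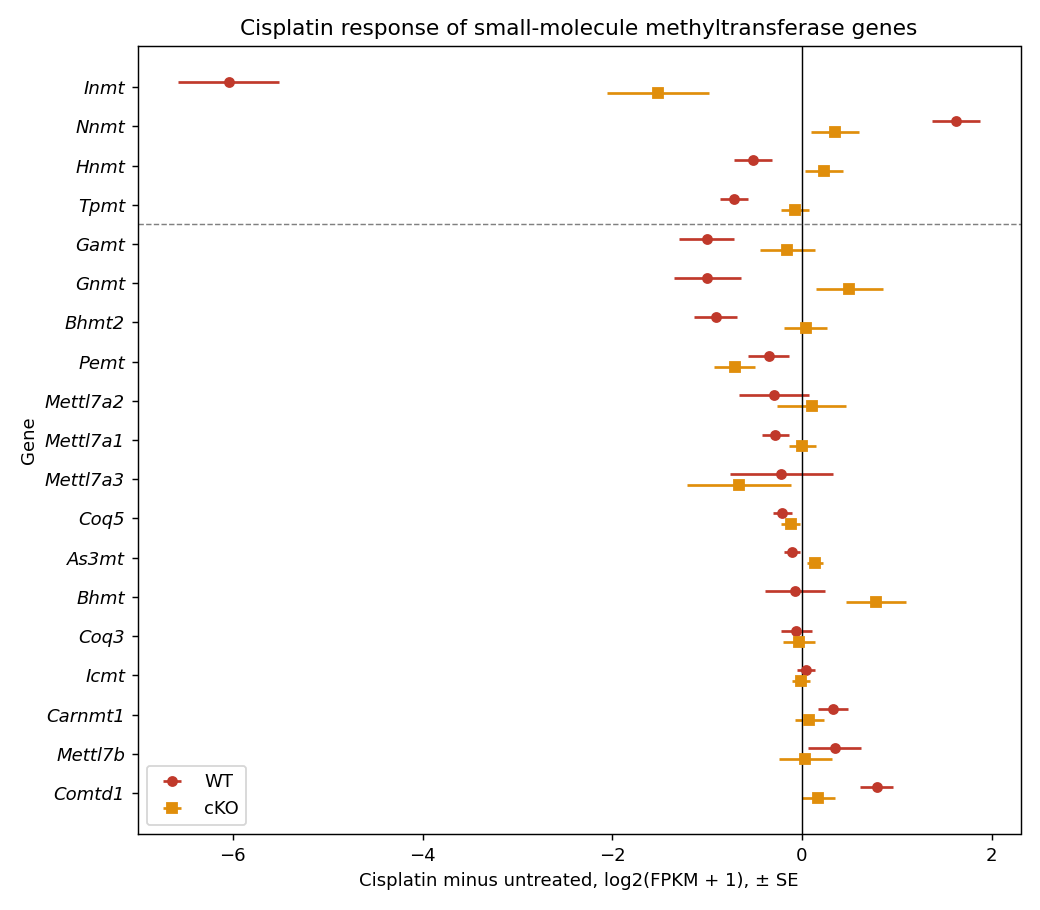
Difference between cisplatin and untreated libraries on the log2(FPKM + 1) scale, with standard errors, for Inmt, Nnmt, Hnmt and Tpmt (above the dashed line) and for 15 of the 16 other small-molecule methyltransferase genes tested, in order of the WT difference, in WT (circles) and cKO (squares). Inmt at −6.04 in WT lies far outside the range of the others, which runs from −1.003 to 1.63.

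The genes that supply and recycle the methyl donor were lower in WT after cisplatin more often than they were higher. Of 19 genes of the S-adenosylmethionine cycle tested, 9 fell, 2 rose and 8 were not called, with a median of −0.38. Ahcy fell from 376 ± 16.9 FPKM (SD, n = 3) to 198 ± 53.6 (SD, n = 4), a change of −0.95 ± 0.18 (adjusted p = 0.00114). The folate enzyme Mthfd1 fell (−0.74 ± 0.10, adjusted p = 1.56e-04), as did Mat2b, the regulatory subunit of methionine adenosyltransferase (−0.42 ± 0.08, adjusted p = 9.27e-04). The liver form Mat1a did not exceed 0.0381 FPKM. After cisplatin 7 were higher in cKO and 1 lower, and without replicate 4 the counts were 6 and 1. Ahcy was higher in cKO by 0.99 ± 0.16 (adjusted p = 0.00111), at 388 ± 68.2 FPKM (SD, n = 4). The responses of Ahcy and Mthfd1 differed between the genotypes (0.9997 ± 0.25, adjusted p = 0.0421, and 0.65 ± 0.15, adjusted p = 0.0295), and without replicate 4 the number of such genes was 0.

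Around the substrate of Nnmt, 15 genes of nicotinamide and NAD metabolism were tested, and in WT 4 fell, 1 rose and 10 were not called (median −0.23). These counts are near the background share, as 34.4% of all genes were called in WT. Sirt3, a mitochondrial deacetylase that releases nicotinamide from NAD, fell from 57.0 ± 1.43 to 24.9 ± 5.60 FPKM (−1.19 ± 0.13, adjusted p = 4.38e-05). The mitochondrial NAD kinase Nadk2 fell (−0.92 ± 0.11, adjusted p = 8.13e-05) and NAD synthetase Nadsyn1 fell (−0.57 ± 0.11, adjusted p = 0.00192). Parp14, an ADP-ribosyltransferase of the same list, rose by 1.01 ± 0.25 (adjusted p = 0.00735). After cisplatin 6 were higher in cKO than in WT and 1 lower, with the same counts without replicate 4. Sirt3 was the gene of this list whose response differed between the genotypes (1.02 ± 0.19, adjusted p = 0.0159).

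Around the substrate of Hnmt, 6 of 14 listed genes passed the filter. The histamine receptors Hrh1, Hrh2, Hrh3 and Hrh4 did not exceed 0.439 FPKM in any library. In WT 2 of the 6 rose and 0 fell (median 0.54), near the 34.4% of all genes called. The 2 that rose encode oxidising enzymes of histamine breakdown. The aldehyde dehydrogenase gene Aldh7a1 of the same list was not called in WT (−0.17 ± 0.12, adjusted p = 0.304). Aoc1, the diamine oxidase that deaminates histamine outside cells, went from 2.32 ± 0.582 FPKM (SD, n = 3) to 31.3 ± 34.1 (SD, n = 4), with WT cisplatin values from 10.2 to 82.3 (2.81 ± 0.53, adjusted p = 0.00122). Aldh1a1, an aldehyde dehydrogenase that also makes retinoic acid, went from 3.61 ± 0.0903 to 62.7 ± 25.2 FPKM (3.70 ± 0.35, adjusted p = 2.01e-05). Hdc, which makes histamine from histidine, was 2.46 to 3.49 FPKM in WT untreated and 3.95 to 5.32 in WT cisplatin libraries and did not pass (0.58 ± 0.22, adjusted p = 0.0620). After cisplatin Aldh1a1 and Aoc1 were lower in cKO than in WT (−2.27 ± 0.33, adjusted p = 4.54e-04, and −2.31 ± 0.49, adjusted p = 0.00432), and Aldh7a1 was higher (0.32 ± 0.11, adjusted p = 0.0449). The mast cell markers Cpa3, Mcpt4, Tpsb2, Cma1 and Fcer1a did not exceed 0.183 FPKM and Tpsab1 was at 0 throughout. Of the other members of that list of 8, Ms4a2 reached 0.834 FPKM and Kit, which other kidney cells also express, lay between 5.86 and 10.7 FPKM.

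Around the substrates of Tpmt, 13 genes of thiopurine and purine salvage were tested, of which 6 rose in WT, 7 were not called and 0 fell (median 0.42). Hprt, the salvage enzyme that activates thiopurines, rose from 57.8 ± 3.39 to 96.5 ± 11.5 FPKM (0.72 ± 0.12, adjusted p = 6.40e-04). Impdh2, which acts on the product of Hprt, rose by 0.87 ± 0.12 (adjusted p = 1.32e-04), and Xdh, the xanthine oxidase that clears thiopurines, by 1.49 ± 0.28 from 6.999 FPKM (adjusted p = 0.00121). Gsto1, a glutathione transferase, rose by 1.20 ± 0.16 (adjusted p = 1.46e-04). After cisplatin 5 were lower in cKO than in WT and 0 higher, with the same counts without replicate 4. The 6 that rose in WT changed in the opposite direction to Tpmt, a contrast that was not tested.

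Around the substrates of Inmt, 12 of 16 listed genes of tryptophan and tryptamine metabolism passed the filter, and in WT 6 fell, 3 rose and 3 were not called (median −0.56). Aadat, which converts kynurenine to kynurenic acid, fell from 190 ± 1.30 to 49.7 ± 21.1 FPKM (−2.01 ± 0.26, adjusted p = 1.02e-04). Afmid, the kynurenine formamidase, fell (−1.25 ± 0.12, adjusted p = 1.89e-05), and it overlaps Tk1 and Gm20708. Maoa, the monoamine oxidase that breaks down tryptamines, rose from 2.48 ± 0.0794 to 7.83 ± 2.80 FPKM (1.29 ± 0.21, adjusted p = 5.31e-04). After cisplatin 6 of the 12 were higher in cKO and 2 lower, 5 and 2 without replicate 4, with Aadat higher by 1.67 ± 0.24 (adjusted p = 4.79e-04) and Maoa lower (−1.27 ± 0.20, adjusted p = 7.60e-04). The median over these 12 was 0.66 there, against −0.11 over all genes tested.

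Likeness was measured as the root-mean-square difference of log2(FPKM + 1) over the 14 libraries, after each gene was centred on its own mean, among 12423 named genes of at least 1 FPKM. The 5 genes nearest to Inmt were Pzp (0.91), Pvalb (1.19), Fcamr (1.20), Dnase1 (1.24) and Slc22a28 (1.32), where the SD of Inmt itself was 2.64. Pzp encodes a protease inhibitor of the alpha-2-macroglobulin family and Pvalb the calcium-binding parvalbumin of the distal convoluted tubule. Fcamr is an Fc receptor for IgA and IgM, Dnase1 a secreted DNase and Slc22a28 a member of an organic anion transporter family. The mean level of Pzp was 122 FPKM in WT untreated, 3.47 in WT cisplatin and 25.4 in cKO cisplatin libraries. In the library numbered cKO cisplatin replicate 4 Pzp was 32.4 FPKM, below the untreated means, while Inmt was at 1203 and Dnase1 at 1895.

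Nnmt had closer neighbours, on its smaller scale of change. The nearest were Pea15a (0.13), Ctsc (0.13), F2rl1 (0.15), Tmem173 (0.16) and Slc12a4 (0.17), where the SD of Nnmt was 0.76. Ctsc encodes the lysosomal protease cathepsin C, F2rl1 the protease-activated receptor PAR2, Tmem173 the nucleic acid sensor adaptor STING and Slc12a4 a potassium-chloride cotransporter. Pea15a went from 31.8 FPKM in WT untreated to 107 in WT cisplatin, and was 43.4 in cKO cisplatin. The summed FPKM of 10 macrophage markers was 226.1 to 274.4 in WT untreated and 194.3 to 228.5 in cKO cisplatin libraries. In WT cisplatin replicates 1 to 4 it was 317, 311.3, 963.9 and 428.7, and 5 of the 10 markers rose in WT after cisplatin. The summed FPKM of 11 fibroblast and pericyte markers was 117.6, 320.7, 691.3 and 444.8 in WT cisplatin replicates 1 to 4. It was 175.6 to 222 in WT untreated and 122.8 to 258.3 in cKO cisplatin libraries. The 12 injury markers summed to 11670, 10900, 18340 and 12660 FPKM in WT cisplatin replicates 1 to 4. The macrophage, fibroblast and injury sums were each highest in replicates 3 and 4 of that group, as was Nnmt. Of the 10 fibroblast and pericyte markers tested, 2 rose in WT and 8 were not called (median 0.40). Over all 15193 genes tested, 3392 rose in WT, so 2 of 10 is near the background share. The 2 were Col3a1 (2.18 ± 0.55, adjusted p = 0.00813) and Col1a1 (1.97 ± 0.50, adjusted p = 0.00834). The part of the macrophage, fibroblast and injury markers in the level of Nnmt was not tested. These neighbours are named by their profiles alone, and the 14 libraries that define the profiles are the same ones in which the groups differ.

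**Figure D4:**
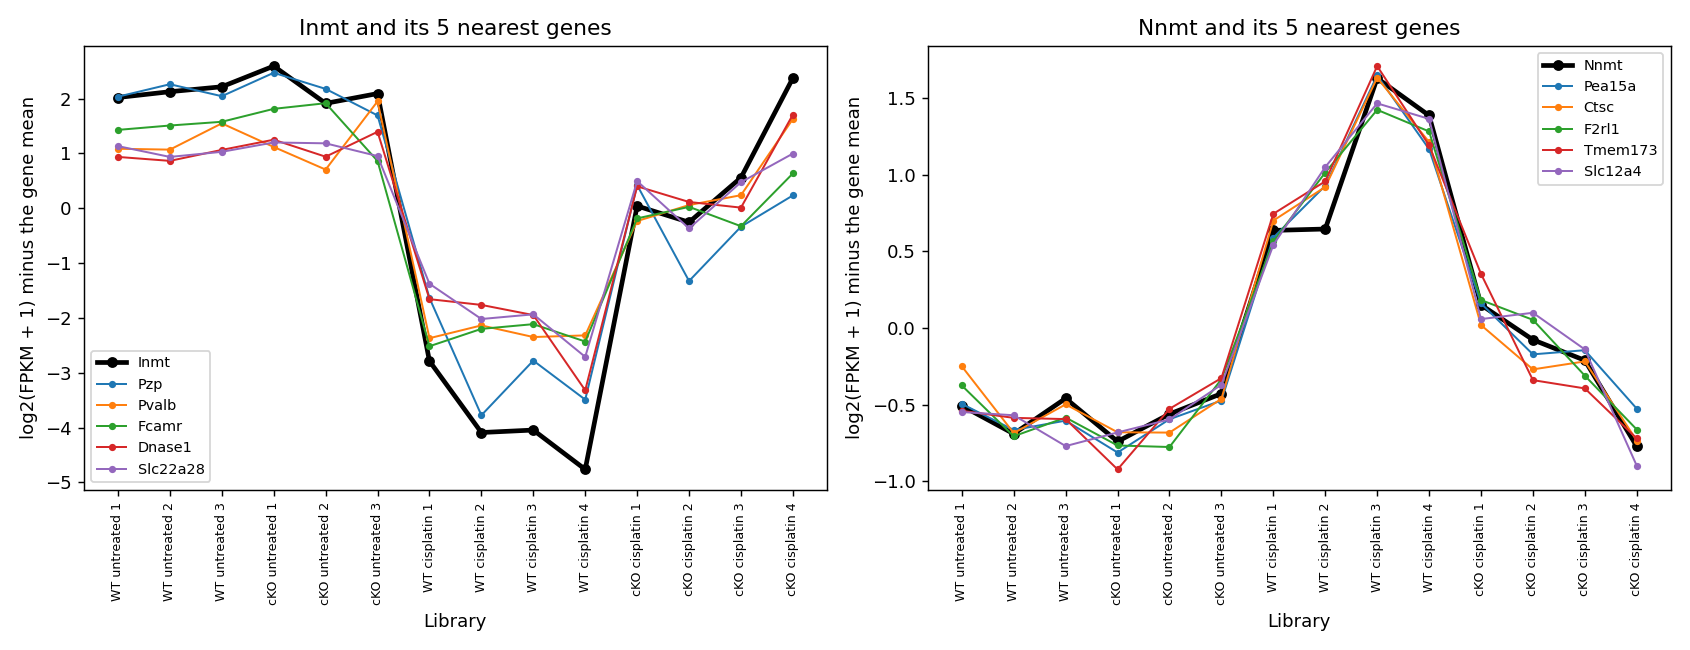
log2(FPKM + 1) minus each gene's mean, in the 14 libraries in group order, for Inmt with its 5 nearest genes (left) and Nnmt with its 5 nearest genes (right). Inmt drops further than its neighbours in the WT cisplatin libraries, and the Nnmt neighbours share its peak in WT cisplatin replicates 3 and 4.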

How the data were processed

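Kidney RNA of 14 mice was sequenced, and each library was taken as 1 animal. Trizol extraction and Illumina TruSeq library kits were used, per the labels' protocols. The aligner was HISAT2 2.0.5 and the build mm10, per the submitters' processing notes. The counter, annotation release and strand setting are not given in the sources used here. The authors deposited FPKM values, which divide reads per gene by gene length and by assigned reads. A gene's values are whole multiples of 1 read, so reads were recovered for 29478 of 29480 genes with a value (tolerance 0.0001). Gene lengths found in this way equal the mean M21 transcript length for 23479 genes. Read numbers cover counting error only, while the SDs and standard errors given with ± come from the spread between libraries. A line of the file (1 in all) was emptied beforehand and was not analysed here.

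FPKM was transformed as log2(FPKM + 1), and 15193 genes were kept whose mean over the libraries reached 0.5 FPKM. A joint model in limma 3.58.1 (R 4.3.3) gave the 5 comparisons, with 4 group means, a mean-variance trend, two-sided tests and Benjamini-Hochberg adjustment over all genes kept. Calls were made at an adjusted p under 0.05, and "rose" and "fell" mean called. Exact two-sided permutation tests over libraries used scipy 1.17.1. Since the labels do not tie libraries to separate litters or days, p-values measure the spread between libraries. The fit was tested on simulated data. The 4 genes and all lists were chosen with earlier results of these data known. The text names the 4 genes, up to 4 list genes with the smallest p in WT, up to 3 in cKO against WT after cisplatin, markers, the histamine receptors and genes under the filter, and the 5 nearest genes of Inmt and Nnmt, except a few that are not reported here. Alternatives covered the added constant, filter, scaling, library weights and left-out libraries. Fits with limma voom on recovered reads and list counts without single libraries were added after seeing the data.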

Additional observations from a re-analysis of the deposited data

Results flagged for a closer look

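Inmt in the library numbered cKO cisplatin replicate 4, at 1203 FPKM, lay far above the other 3 libraries of its group (193 to 341 FPKM). Its gap to the nearest of them was 0.854 of the group's whole range, which set it apart among the 8 groups of 4 libraries looked at over the 4 genes. The gap was taken on FPKM and depends on that scale. On the log2(FPKM + 1) scale of the fits, centred on the gene mean, replicates 1 to 4 were at 0.042, −0.255, 0.559 and 2.376. There the gap is a smaller part of the range. Chance flags about 1 in 20 groups, and since the level in this group helped to choose Inmt, the gap is a description and not a test. The same library had Nnmt at 0.546 and Havcr1 at 5.38 FPKM, both inside the range of the untreated libraries' values or below it, and Tpmt at 124 FPKM.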

How the results depend on the processing

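The calls of Nnmt and Tpmt in WT and between the genotypes after cisplatin kept their direction and stayed past the threshold in every alternative run (adjusted p from 4.79e-06 to 0.0213 in WT over 17 alternatives, and from 1.12e-04 to 0.0321 between the genotypes over 18). Inmt kept its direction in the comparisons that chose it. Hnmt in WT was not called as deposited and was called with median-of-ratios scaling (−0.61), quantile normalization (−0.68), array weights (−0.74), the first cisplatin libraries of both genotypes left out (−0.63) and voom (−0.59), and ranged from −0.63 to −0.35 as single libraries were left out. Hnmt between the genotypes after cisplatin was not called without the filter (0.62, adjusted p = 0.0521) or with only the groups compared (0.62, adjusted p = 0.0658), and ranged from 0.45 to 0.73 as single libraries were left out. The difference of the responses passed with array weights and with the first cisplatin libraries left out for Hnmt (1.09 and 0.96), Nnmt (−1.39 and −1.55) and Tpmt (0.73 and 0.76), and for Nnmt with quantile normalization (−1.19). Leaving out single libraries gave −1.42 to −1.09 for Nnmt and 0.54 to 0.75 for Tpmt, which passed without WT cisplatin replicate 1 or 2, and for Nnmt also without cKO cisplatin replicate 1. Between the untreated genotypes, where none was called, signs turned: Nnmt was 0.024 with quantile normalization, and the ranges over left-out libraries were −0.12 to 0.22 for Inmt, −0.29 to 0.034 for Hnmt, −0.099 to 0.057 for Nnmt and −0.037 to 0.058 for Tpmt. The cause of these changes was not tested.

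The number of genes called in cKO, 3, was 12 without the filter, 5 with median-of-ratios scaling, 1 with quantile normalization, 0 with only the groups compared, 874 with array weights, 5 with the first cisplatin libraries left out, 5 by voom, and 0 to 287 as single libraries were left out, with 287 without the library numbered cKO cisplatin replicate 4. Between the untreated genotypes it was 0 to 1. Between the genotypes after cisplatin it was 2161 with only the groups compared, against 4088, and 2803 to 6201 as single libraries were left out, with 6201 without WT cisplatin replicate 1. The number whose responses differed, 617, was 255 without the filter, 3429 with array weights, 2214 with the first cisplatin libraries left out and 84 to 2245 as single libraries were left out, lowest without WT untreated replicate 2 and highest without WT cisplatin replicate 1. Of the genes called in WT 3392 were higher and 1832 lower, and with median-of-ratios scaling 2678 and 2337. Between the genotypes after cisplatin 1333 were higher in cKO and 2755 lower, and with median-of-ratios scaling 1781 and 2031. No paired analysis was possible because the labels link no libraries of different groups as pairs.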
